A study of Homo sapiens with 17 samples.

Results

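This account covers the inner parts of chromosomes 16, 17, 19, 20 and 22, cut into consecutive windows of 1 Mb from position 0 of each chromosome on build hg18. Windows within 5 Mb of either chromosome end were left out, the end being the highest position in any of the 5 deposited region lists. This leaves 290 windows of the 2636 windows that the same rule gives on all 22 autosomes: 78 on chromosome 16, 68 on 17, 53 on 19, 52 on 20 and 39 on 22. The reference is the 2346 windows of the other 17 autosomes. No measured value of the lists chose these chromosomes.

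The series profiled chromatin by immunoprecipitation and sequencing (ChIP-seq) in IMR90 cells, a line of primary human lung fibroblasts, and 17 libraries fall into 11 groups. For replicative senescence, senescent cells at population doubling 87, kept for 2 further weeks after growth ceased, were set against proliferating cells at doubling 24, with 1 senescent and 1 proliferating library for H3K4me3, 2 and 4 for H3K27me3, and 2 each for histone H3. For oncogene-induced senescence (OIS), Ras-induced cells at doubling 15 were set against control cells at doubling 15, with 1 library each for H3K4me3 and H3. Ras-induced cells came from IMR90 infected with a retrovirus carrying pLNC-ER:Ras, switched on with 100 nM 4-hydroxytamoxifen, and the labels do not say whether the control cells carry the construct or received vehicle. Lamin B1 was mapped in 1 library of proliferating cells only. The lists hold coordinates and no signal, count or p-value, so there is no value per library, the depth behind a region is unknown, and a window has no replicate error. No test of a difference was therefore made. Spreads below are over windows or over chromosomes, which are not replicates of a condition.

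The first of the 5 lists gives LADs (lamina-associated domains). Mesas, domains of gain in senescent cells, have a list each for H3K4me3 in replicative senescence, H3K4me3 in the Ras experiment and H3K27me3 in replicative senescence. Canyons, domains of loss, are given for H3K27me3. A track line states this direction only for the replicative H3K4me3 list, and for the others it is taken from the names. As background, LADs are large and mostly silent stretches that touch the nuclear lamina, the filament layer under the nuclear envelope of which lamin B1 is a part. H3K4me3 is normally a sharp mark of active promoters, and H3K27me3 is laid down by Polycomb repressive complex 2 over silenced genes. Gene-rich chromosomes tend to lie towards the inside of the nucleus and gene-poor ones towards its edge.

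These chromosomes were grouped as gene-dense, and their gene counts can be set against those of the other autosomes. RefSeq (GRCh38.p14) lists 22.7 protein-coding genes per Mb on chromosome 19, counted over the whole chromosome up to its highest list end, 14.9 on 17, 9.61 on 16, 9.08 on 22 and 8.60 on 20. Over the 5 chromosomes together the density was 13 per Mb, against 5.81 over the other autosomes. Chromosome 11, with 9.68 genes per Mb, ranked above 16, 20 and 22 and is not among the 5, and chromosome 1 followed chromosome 20 at 8.34. The lowest density was 2.96, on chromosome 13.

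Some of the windows were empty. Of the 290, 24 lay in runs of 3 or more consecutive windows that held no base pair of a LAD or a mesa, called empty runs below: 8 on chromosome 16 at 36000001 to 44000000, 7 on chromosome 19 at 25000001 to 32000000 and 9 on chromosome 22 at 5000001 to 14000000. The runs on 19 and 22 held no region of any list. The run on 16 was covered to 100% by a single H3K27me3 canyon at 35143101 to 44954799, whose 9.81 Mb made it the longest canyon in these windows. The lists do not mark unassembled sequence, and no sequence of build hg18 was read. From the lists alone, windows without usable sequence cannot be told apart from windows in which nothing was called. This holds also for the run on 16, so whether its canyon lies over usable sequence was not tested. The main values that these windows touch are given with and without them, and all others include them unless stated.

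LAD cover of the 5 chromosomes was close to that of the other autosomes, while all 3 mesa lists covered more of their windows and canyons covered less. The mean window was 59.8 ± 35.2% under LADs on the 5 chromosomes and 59.4 ± 35.4% on the other autosomes (SD over 290 and 2346 windows). Replicative H3K4me3 mesas covered 23.7 ± 33.2% of a window on the 5 chromosomes and 14.0 ± 25.7% on the others, a difference of 9.67 percentage points. Ras-induced H3K4me3 mesas covered 34.4 ± 37.8% against 20.0 ± 30.3%, a difference of 14.5 points, and H3K27me3 mesas 23.0 ± 34.6% against 14.5 ± 29.7%, a difference of 8.54 points. The ratios of the means were 1.69, 1.72 and 1.59 for the 3 mesa lists in that order. H3K27me3 canyons covered 27.7 ± 38.9% on the 5 chromosomes and 37.4 ± 43.1% elsewhere, a difference of -9.69 points. Without the empty runs the differences were 3.36 points for LADs, 11.2 for replicative mesas, 16.7 for Ras-induced mesas, 10.01 for H3K27me3 mesas and -11.2 for canyons.

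The 5 chromosomes did not behave as a block. For replicative H3K4me3 mesas the mean window cover was 31.9% on chromosome 19, 25.5% on 16, 23.8% on 20, 19.2% on 22 and 17.7% on 17, against 6.60 to 20.3% on the other 17 autosomes. Chromosomes 19, 16 and 20 thus lay above every other autosome, and 22 and 17 lay inside their range. Without the empty runs chromosome 22 had 24.9% and was also above every other autosome, whose highest value was then 20.8%. Ras-induced mesas gave the same division, with 47.1% on 19, 38.5% on 20, 37.3% on 16, 25.6% on 17 and 21.4% on 22, against 10.8 to 26.1% elsewhere. With those runs left out 22 had 27.8% of Ras-induced cover against a highest value of 26.9% elsewhere, and only 17 remained inside the range of the others. For H3K27me3 mesas the highest autosomes were 20 with 31.2% and 16 with 29.7%, while 19 had 20.4%, 17 had 15.9% and 22 had 14.5%, against 2.67 to 23.0% elsewhere. With them left out 19 had 23.5% and also lay above the other autosomes. Averaged by chromosome, cover on the 5 and on the other 17 was 23.6 ± 5.66% and 13.6 ± 4.26% for replicative mesas, 34 ± 10.4% and 19.9 ± 4.25% for Ras-induced mesas, and 22.3 ± 7.74% and 14.5 ± 5.69% for H3K27me3 mesas (SD over chromosomes). The differences thus exceeded the larger SD for both H3K4me3 lists and were about as large as it for H3K27me3 mesas.

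Canyons set chromosome 17 apart within the group, and LADs set 22 apart only with its empty windows kept. Chromosome 17 had 48.4% of its mean window under canyons, the third highest of the 22 autosomes, whereas 16 had 24.3%, 19 had 21.1%, 22 had 19.1% and 20 had 18.9%, against 19.5 to 53.5% elsewhere. Without the empty runs, chromosome 16 had 15.6%, 19 had 24.3% and 22 had 24.8%, against 15.4 to 60.5% elsewhere. LADs covered 69.1% of the mean window on 19, 65.9% on 16, 62.7% on 20, 53.6% on 17 and 42.1% on 22, against 44.8 to 69.9% elsewhere. Chromosome 22 had the lowest LAD cover of all autosomes, but without its 9 empty windows the value was 54.8%, inside the range of the others. Leaving out the empty runs, 19 and 16, with 79.6% and 73.5%, had more LAD cover than any other autosome. Of the short chromosomes outside the group, 21 had 6.60% under replicative, 13.5% under Ras-induced and 11.8% under H3K27me3 mesas. Chromosome 18 had 8.97%, 23.7% and 17.4%, so its Ras-induced and H3K27me3 mesa cover exceeded that of 22 and its replicative cover did not. This order depended on the empty windows of 22. Without them 22 had 27.8% under Ras-induced and 18.9% under H3K27me3 mesas, both above the values of 18, which held no empty run.

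**Figure D1:**
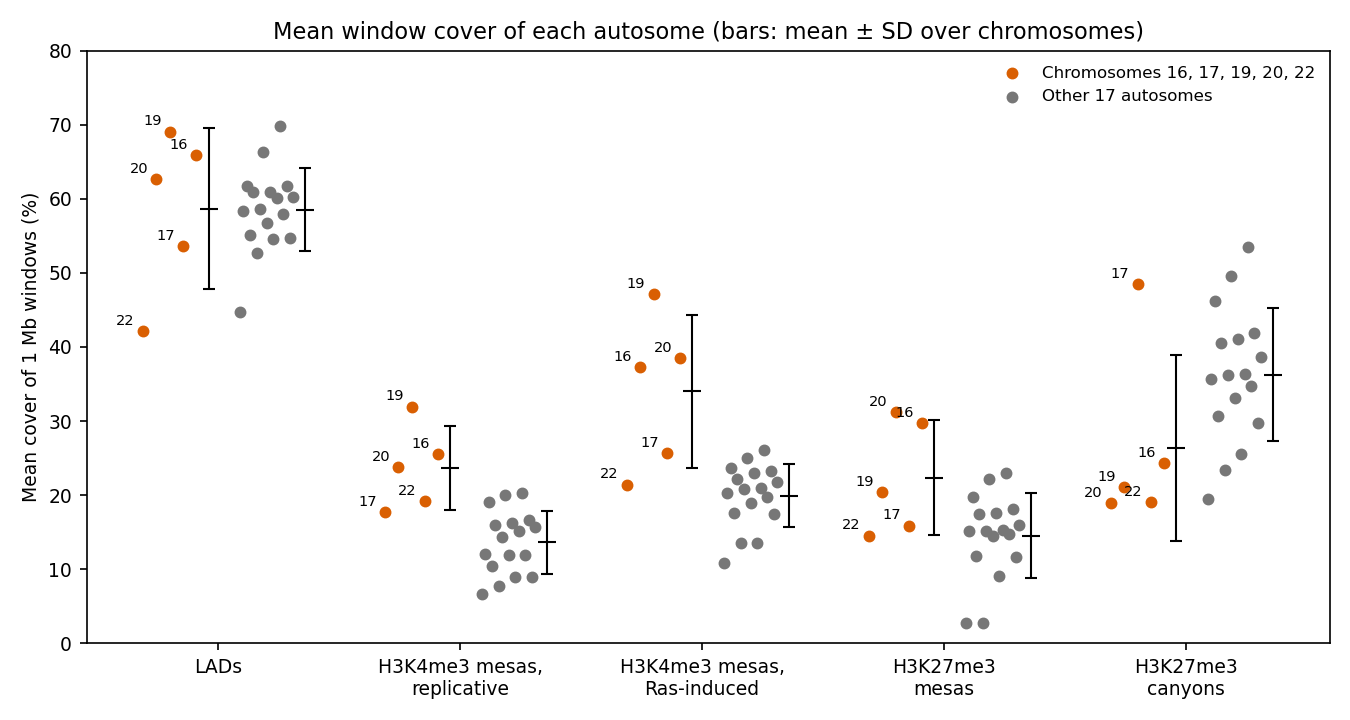
Mean cover (%) of 1 Mb windows for each autosome and each of the 5 lists, with chromosomes 16, 17, 19, 20 and 22 in orange and the other 17 autosomes in grey. Black bars give the mean ± SD over chromosomes, for example 34 ± 10.4% and 19.9 ± 4.25% for Ras-induced H3K4me3 mesas, and chromosome 19 is the highest autosome for both H3K4me3 lists.

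Counting windows gave a like picture. A window is called covered by a list when at least 50% of it lies under that list. LADs covered 178 of the 290 windows (61.4%) and 1448 of 2346 on the other autosomes (61.7%), with a background over all 2636 autosomal windows of 61.7%. Replicative H3K4me3 mesas covered 76 (26.2%) against 354 (15.1%), background 16.3%. Ras-induced mesas covered 103 (35.5%) against 495 (21.1%), background 22.7%, and H3K27me3 mesas covered 60 (20.7%) against 305 (13%), background 13.8%. Canyons covered 79 (27.2%) against 853 (36.4%), background 35.4%. Without the empty runs the shares were 66.9% against 64.3% for LADs, 28.6% against 15.7% for replicative, 38.7% against 22% for Ras-induced and 22.6% against 13.5% for H3K27me3 mesas, and 26.7% against 37.3% for canyons. These counts restate the means above and are not separate evidence.

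Many windows held nothing of a given mesa list. Replicative mesas were absent from 169 of the 290 windows (58.3%, background 69.1%), Ras-induced mesas from 128 (44.1%, background 59.6%) and H3K27me3 mesas from 129 (44.5%, background 60.6%). Canyons were absent from 130 (44.8%, background 41.2%) and LADs from 33 (11.4%, background 11.4%). Full cover was reached in 64 windows for LADs (22.1%, background 22.5%), 35 for canyons (12.1%, background 18.9%) and 19 for H3K27me3 mesas (6.55%, background 5.88%). Ras-induced H3K4me3 mesas filled 16 windows (5.52%, background 2.39%) and replicative ones 6 (2.07%, background 0.873%).

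Windows with several gains were also more frequent than over all autosomes. Both H3K4me3 lists covered the same 59 windows (20.3%) on the 5 chromosomes and 176 (7.50%) on the others, against a background of 8.92%. All 3 mesa lists covered 28 windows (9.66%) and 79 (3.37%), background 4.06%. By contrast, windows with Ras-induced but not replicative mesas numbered 44 (15.2%) against 319 (13.6%), background 13.8%, and windows with replicative but not Ras-induced mesas 17 (5.86%) against 178 (7.59%), background 7.40%. The higher H3K4me3 counts of these chromosomes therefore lay in windows shared by both forms of senescence, and windows called in 1 form only were near the background. A shared count rises when both lists cover more windows, and here both did, at 26.2% and 35.5% against 15.1% and 21.1%. Whether the sharing went beyond that was not tested. H3K27me3 mesas without either H3K4me3 list covered 14 windows (4.83%) against 105 (4.48%), background 4.51%. Windows with an H3K4me3 mesa list and canyons each at 50% or more numbered 18 (6.21%) against 164 (6.99%), background 6.90%, and windows with LADs and canyons 25 (8.62%) against 331 (14.1%), background 13.5%. No list reached 50% in 48 windows (16.6%) against 322 (13.7%), background 14.0%. LAD windows with none of the 4 changes numbered 47 (16.2%) against 557 (23.7%), background 22.9%.

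Along the chromosomes, the 3 mesa lists met in a few stretches that differed from each other in composition. The longest run of windows under Ras-induced mesas was at the start of the kept part of chromosome 16, at 5000001 to 12000000, where 7 windows averaged 84.7% under LADs, 55.6% under replicative mesas, 86.7% under Ras-induced mesas, 78.0% under H3K27me3 mesas and 0.219% under canyons. A second such stretch, 6 windows on chromosome 19 at 32000001 to 38000000, averaged 89.3% under LADs, 48.9% under replicative, 79.0% under Ras-induced and 91.1% under H3K27me3 mesas, with no canyon. On chromosome 20, 4 windows at 21000001 to 25000000 averaged 100% under LADs, 87.4% under replicative, 89.6% under Ras-induced and 60.7% under H3K27me3 mesas. On chromosome 17, 4 windows at 8000001 to 12000000 averaged 85.2% under LADs, 71.9%, 77.9% and 74.6% under replicative, Ras-induced and H3K27me3 mesas, and 12.4% under canyons.

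Chromosome 19 also held the opposite combination. Its longest run under replicative mesas, 4 windows at 20000001 to 24000000 just before the empty run, averaged 100% under LADs, 94.0% under replicative and 87.7% under Ras-induced mesas, but 0.255% under H3K27me3 mesas and nothing under canyons. As background, chromosome 19 is known for large clusters of zinc-finger genes. Of its 14 windows covered by both H3K4me3 lists, 7 held no H3K27me3 mesa at all and 6 were covered by one. Over all 53 windows of chromosome 19, 27 (50.9%) held none, the 7 windows of the empty run among them, so the share among the 14 was not far from it. On the other 4 chromosomes of the group the windows without any were 2 of 17 on chromosome 16, 1 of 9 on 17, 0 of 10 on 20 and 1 of 9 on 22. Over all their windows, empty runs kept, the shares were 43.6% on 16, 50% on 17, 26.9% on 20 and 51.3% on 22. Over the group 28 of 59 windows under both H3K4me3 lists (47.5%) were also covered by H3K27me3 mesas, and on the other autosomes 79 of 176 (44.9%). Of all windows, H3K27me3 mesas covered 20.7% on the group and 13% on the other autosomes. None at all was held by 11 of the 59 and by 43 of the 176, against 44.5% and 62.6% of all windows.

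Canyons formed their own blocks. The longest run of canyon windows on chromosome 17 spanned 14 windows at 54000001 to 68000000 and averaged 91.6% under canyons, 40.1% under LADs, 0.721% under replicative, 6.14% under Ras-induced and 0.119% under H3K27me3 mesas. On chromosome 19 the run at 47000001 to 55000000 had 8 windows with 68.6% under canyons and 53.4% under LADs, and there Ras-induced mesas still covered 41.8% and replicative mesas 18.1%. On chromosomes 20 and 22 the longest canyon runs were only 2 and 3 windows.

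**Figure D2:**
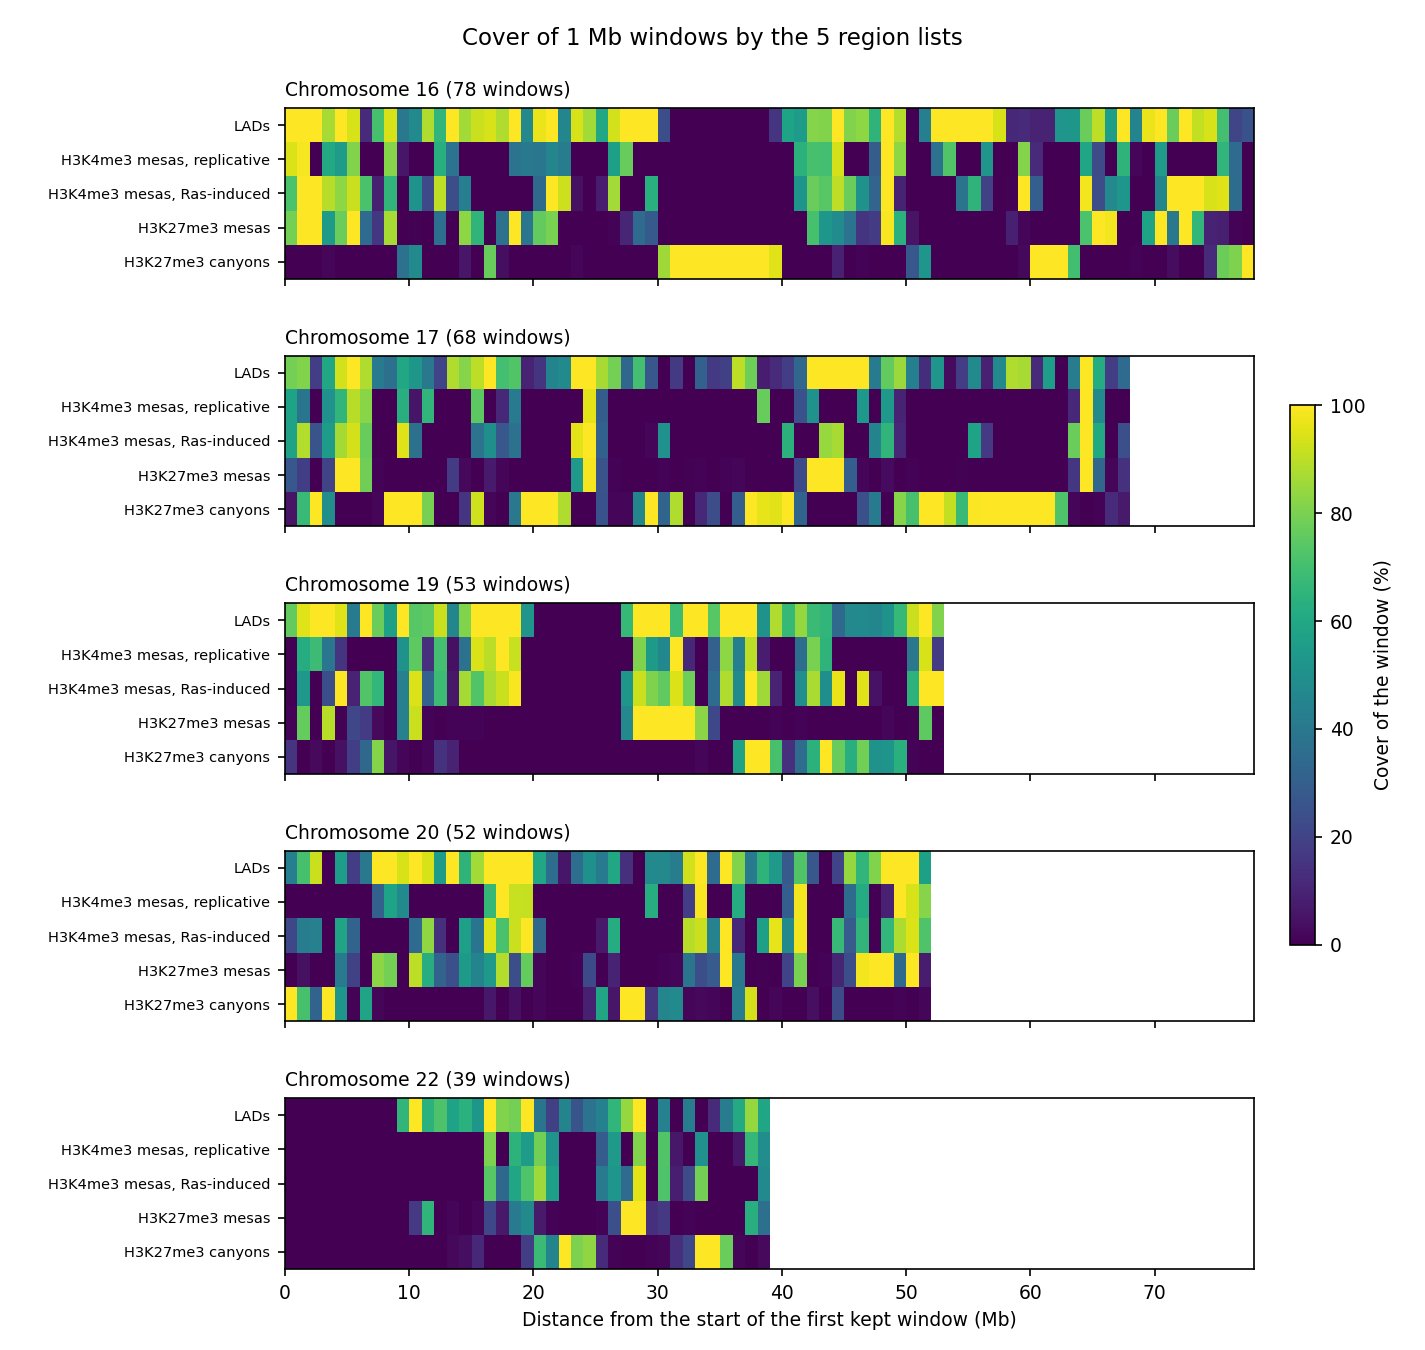
Cover (%, colour scale) of each kept 1 Mb window by the 5 lists on chromosomes 16, 17, 19, 20 and 22, plotted against distance in Mb from the start of the first kept window. The 3 mesa rows are bright together near the start of chromosome 16, the empty runs of 8, 7 and 9 windows show as dark blocks on 16, 19 and 22, and the block on 16 is filled by a canyon.

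Windows chosen by their rank show the same contrasts one by one. The window with the highest summed mesa cover on chromosome 16, at 53000001 to 54000000, was 100% under LADs, replicative and Ras-induced mesas and 99.0% under H3K27me3 mesas. That on chromosome 17, at 69000001 to 70000000, was at 100% for LADs and for all 3 mesa lists. On chromosome 19 it was at 36000001 to 37000000, with 69% under LADs, 100% under replicative, 94.6% under Ras-induced and 99.9% under H3K27me3 mesas. Chromosome 20 had it at 55000001 to 56000000 and chromosome 22 at 33000001 to 34000000, both wholly in LADs, with 94.1% and 81.2% under replicative, 94.5% and 95.9% under Ras-induced and 99.9% and 99.9% under H3K27me3 mesas. None of these 5 windows held a canyon base.

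Other windows showed 1 gain without the other. On chromosome 16 the window at 7000001 to 8000000 was 100% under LADs, Ras-induced mesas and H3K27me3 mesas and held no replicative H3K4me3 mesa, although its neighbour at 6000001 to 7000000 was 98.7% under one. On chromosome 19 the window at 22000001 to 23000000 was 100% under LADs and replicative mesas and 91.8% under Ras-induced mesas and held no H3K27me3 mesa. The longest regions lying wholly in the kept windows differed likewise. The longest LAD, on chromosome 16 at 56570001 to 62940000 (6.37 Mb), had 25.6% under replicative and 19.4% under Ras-induced mesas and nothing under H3K27me3 mesas. The H3K27me3 mesa of greatest length, 3.51 Mb on chromosome 17 at 46793301 to 50299099, was 100% in LADs, with 20.4% under replicative and 48.9% under Ras-induced mesas. For Ras-induced mesas it was one of 4.04 Mb on chromosome 16 at 75540001 to 79575999, with 5.35% under replicative and 64.9% under H3K27me3 mesas, and for replicative mesas one of 2.24 Mb on chromosome 20 at 21334001 to 23571999, with 81.4% under Ras-induced and 65.8% under H3K27me3 mesas.

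At the 5 Mb limit itself, the 10 windows just inside and the 10 just outside averaged 55.5% and 44.2% under LADs, 30.1% and 17.6% under replicative mesas, 39.5% and 33.9% under Ras-induced mesas, 16.7% and 19.4% under H3K27me3 mesas, and 23.2% and 25.9% under canyons. On chromosome 22 the first window inside and the last outside at the start of the chromosome were both empty. Single windows on either side ran from 0% to at least 79.3% for every list.

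In percentage points, the difference in mesa cover was larger inside LADs than outside. Of LAD base pairs in the kept windows, 35.6% were under replicative mesas on the 5 chromosomes and 21.1% on the other autosomes. Chromosome 19 had 44.8%, 16 had 35.1%, 20 had 35.0%, 22 had 32.4% and 17 had 28.8%, against a range of 9.89 to 33.6% with a median of 20.6% on the other 17. Ras-induced mesas lay over 47.8% of LAD base pairs against 25.7%, with 59.9% on 19, 53.1% on 20, 47.3% on 16, 37.3% on 17 and 34.9% on 22, against 12.0 to 38.8% elsewhere. H3K27me3 mesas lay over 35.7% against 22.4%, with 46.9% on 20, 41.9% on 16, 28.9% on 22, 28.5% on 17 and 27.3% on 19, against 3.40 to 34.8% elsewhere. For each mesa list all 5 chromosomes exceeded the median of the other autosomes.

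Replicative mesas covered 5.99% of base pairs outside LADs on the 5 chromosomes and 3.71% on the others, Ras-induced mesas 14.6% against 11.6%, and H3K27me3 mesas 4.05% against 2.78%. Inside LADs the differences were 14.5, 22.1 and 13.3 points, and outside 2.28, 3.00 and 1.28 points. As ratios they were 1.69 inside and 1.62 outside for replicative mesas, 1.86 and 1.26 for Ras-induced mesas, and 1.59 and 1.46 for H3K27me3 mesas. The empty runs lie outside LADs, and without them the outside differences were 3.43, 5.51 and 2.02 points and the outside ratios 1.83, 1.43 and 1.66. With the empty runs kept, the ratio was thus larger inside LADs than outside for each mesa list. Without them it was larger outside for replicative and H3K27me3 mesas and larger inside for Ras-induced mesas. For replicative and H3K27me3 mesas the order in ratio therefore depended on the empty runs. Canyons were lower on both sides, at 17.3% against 25.8% of LAD base pairs and 43.2% against 54.3% outside LADs. Chromosome 17 had 36.0% and 62.8%, above these pooled values but inside the range of the other 17 autosomes, 6.22 to 53.6% and 34.3 to 66.8%. Chromosome 16 had 58.8% outside LADs with the canyon over its empty run and 41% without that run. On chromosome 19 canyons covered 22.8% inside and 17.2% outside LADs, but 30% outside without the empty run, which turns the order round. With the run in or out, 74.8% of its canyon base pairs lay in LADs, against 16.8 to 55.0% on the other 17 autosomes. LADs covered 69.1% of the mean window on chromosome 19 with the run and 79.6% without it, so that share was near its LAD cover.

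Windows of like LAD cover can be set side by side, with the empty runs left out. In windows with at least 75% LAD cover, replicative mesas covered 39.1 ± 36.6% on the 5 chromosomes and 20.2 ± 30.7% on the others (SD over 126 and 1012 windows). Ras-induced mesas covered 51.9 ± 38.4% against 25.6 ± 34.1%, H3K27me3 mesas 42.8 ± 39.8% against 26.4 ± 38.3%, and canyons 10.2 ± 24.7% against 18.6 ± 35.03%. Each SD is as large as the difference or larger, since windows tend to be either largely covered or bare. In windows with under 25% LAD cover the values were 7.86% against 4.09% for replicative, 15.9% against 13.2% for Ras-induced and 2.55% against 1.17% for H3K27me3 mesas, and 58.8% against 67.2% for canyons, over 40 and 432 windows. The 5 chromosomes thus had more of each mesa list in every LAD class, with the widest gap where LAD cover was highest. Among windows called as LAD, 88 of 178 (49.4%) were covered by Ras-induced mesas, against 375 of 1448 (25.9%). With the runs left out, Ras-induced mesas covered 17.5% against 13.7% of windows under 25% LAD cover, and 16.7% against 16.4% at 25 to 50%. Replicative mesas covered 10% against 2.55%, and 8.33% against 4.57%. The next counts keep the empty runs, which lowers the shares. Among the 112 windows under 50% LAD cover, Ras-induced mesas covered 15 (13.4%) against 120 of 898 (13.4%), background 13.4%. Replicative mesas covered 8 (7.14%) against 28 (3.12%), background 3.56%. H3K27me3 mesas covered 0 of the 112 against 6 (0.668%), background 0.594%, a share too low for the 0 to stand apart.

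**Figure D3:**
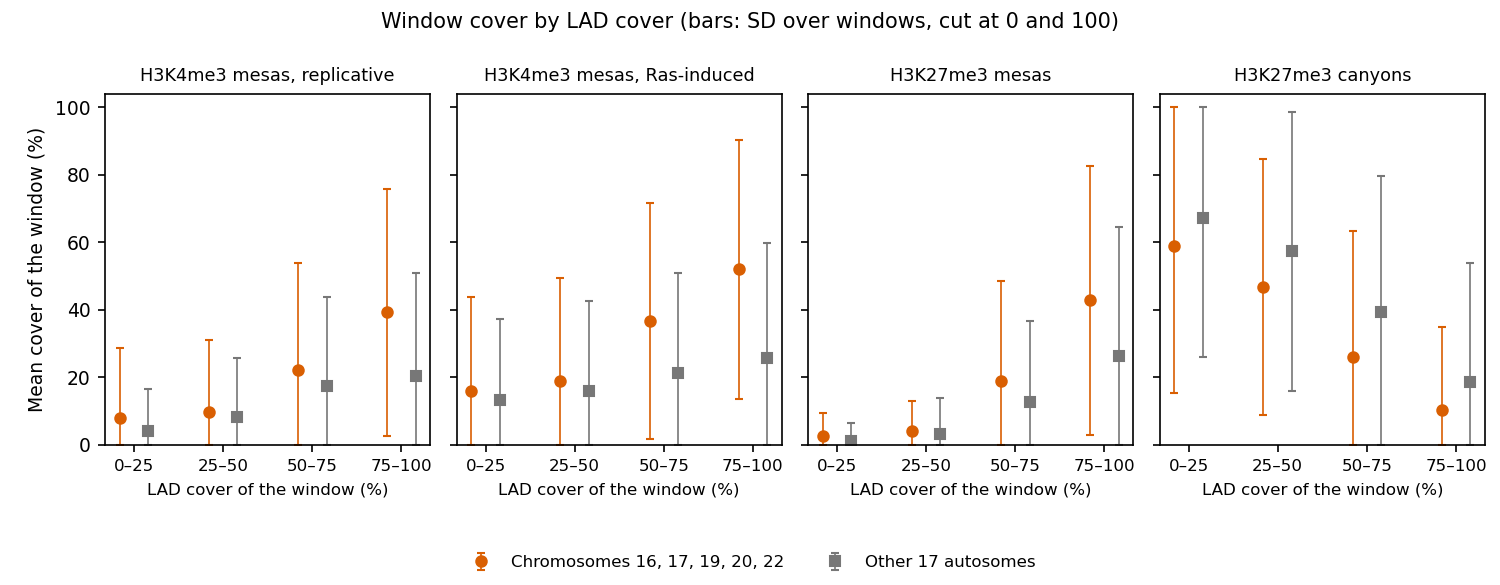
Mean cover (%) of 1 Mb windows by each of the 4 change lists in 4 classes of LAD cover, for chromosomes 16, 17, 19, 20 and 22 (orange circles) and the other 17 autosomes (grey squares), with bars for the SD over windows cut at 0 and 100 and the empty runs left out. In the highest LAD class the Ras-induced means are 51.9% and 25.6%.

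Cover by different lists varied together over the windows. The 290 windows share the same libraries and neighbouring windows share regions, so the correlations below describe these maps and carry no p. Replicative and Ras-induced mesa cover had a Pearson r of 0.590 on the 5 chromosomes and 0.417 over the 2346 other windows. By chromosome r was 0.877 on 22, 0.640 on 19, 0.553 on 17, 0.509 on 20 and 0.497 on 16, against 0.273 to 0.766 on the other 17 autosomes. On chromosome 22 the value was 0.858 without its empty windows. On that chromosome 9 of its 9 windows under Ras-induced mesas were also covered by replicative mesas, and of its 10 under replicative mesas 1 was not under Ras-induced ones.

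Mesa cover followed LAD cover more closely on the 5 chromosomes than on the others. For LADs and replicative mesas r was 0.473 against 0.266, for LADs and Ras-induced mesas 0.488 against 0.197, and for LADs and H3K27me3 mesas 0.536 against 0.371. Every one of the 5 chromosomes lay above the median of the other 17 for both H3K4me3 lists, and 4 of 5 did for H3K27me3 mesas. Windows at 0 for all lists raise these values, and without the empty runs they were 0.433 against 0.245, 0.421 against 0.162 and 0.515 against 0.361. Among windows with at least 50% LAD cover they were 0.341 against 0.0300, 0.260 against 0.0562 and 0.377 against 0.207.

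The other pairs were closer between the groups. H3K27me3 mesas had r of 0.407 with replicative and 0.475 with Ras-induced mesas on the 5 chromosomes, against 0.333 and 0.377. Canyon cover ran against the other lists, with r of -0.428 for LADs, -0.258 for replicative mesas, -0.273 for Ras-induced mesas and -0.435 for H3K27me3 mesas, against -0.390, -0.209, -0.119 and -0.372. H3K27me3 mesas and canyons are gain and loss of the same mark, so their negative r is partly fixed by what the lists are. For canyons and LADs r by chromosome was -0.754 on 16, -0.469 on 20, -0.416 on 17, -0.202 on 22 and -0.0326 on 19. Without the empty runs r was -0.591 on 16, -0.429 on 19 and -0.581 on 22. For Ras-induced mesas and canyons r was negative on 16, 17 and 20, at -0.432, -0.345 and -0.384, but 0.0982 on 19 and 0.0762 on 22, and without the empty runs -0.0243 and -0.0494 on those last chromosomes.

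**Figure D4:**
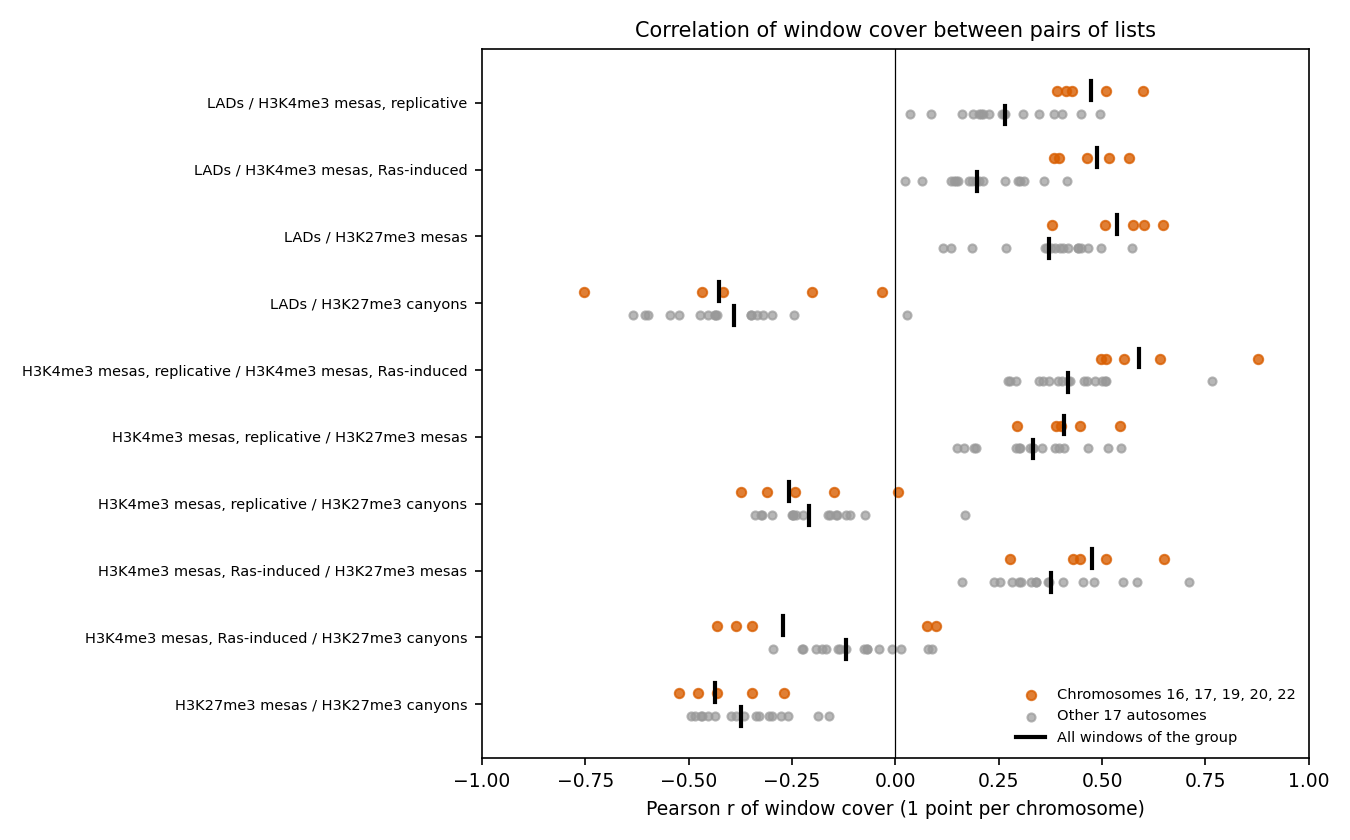
Pearson r of window cover for the 10 pairs of lists, with 1 point per chromosome (orange for chromosomes 16, 17, 19, 20 and 22, grey for the other 17 autosomes) and a black bar for all windows of each group. Orange points lie to the right of most grey points for LADs against both H3K4me3 lists, with group values of 0.473 and 0.488 against 0.266 and 0.197.

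In base pairs, the H3K4me3 mesas of the 2 forms of senescence overlapped more on the 5 chromosomes. Of replicative mesa base pairs, 75.5% lay under Ras-induced mesas on the 5 chromosomes, which covered 34.4% of their span, and 53.4% did so on the others, where they covered 20.0%. By chromosome the share was 85.8% on 19, 85.0% on 22, 72.8% on 17, 72.6% on 20 and 66.5% on 16, against 39.2 to 94.9% elsewhere. Of Ras-induced mesa base pairs, 51.9% lay under replicative mesas against 37.5%, with 76.0% on chromosome 22 and 58.2% on 19 as the highest values and 24.2 to 46.2% on the other 17 autosomes. A share grows with the cover of the other list, so these values are to be read beside the cover of each group.

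H3K27me3 mesas lay under Ras-induced mesas for 66.2% of their base pairs against 48.0%, and under replicative mesas for 48.0% against 36.3%. The share under Ras-induced mesas was highest on chromosome 17, at 77.5%, where those mesas covered 25.6% of the span, and lowest on 22, at 44.2%, where they covered 21.4%. All 3 mesa lists met over 9.06% of the span of the 5 chromosomes and 3.46% of the others. At least 1 mesa list lay over 46.1% against 32.2%, and at least 1 of the 4 changes over 67.5% against 62.9%. The share of each list inside LADs was alike in both groups for replicative mesas (89.8% against 89.3%) and H3K27me3 mesas (92.9% against 92.2%), and was 83.0% against 76.4% for Ras-induced mesas. Chromosome 22 was the lowest of the 5 for all 3, with 71.1%, 83.7% and 68.6% for replicative, H3K27me3 and Ras-induced mesas. A share inside LADs grows with LAD cover, which was 42.1% on 22 with its empty windows and 54.8% without them. It was 53.6% on 17, which held no empty run, and 62.7 to 69.1% on 20, 16 and 19 with any empty runs kept.

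The share of canyon base pairs under H3K4me3 mesas was higher on chromosomes 19 and 22 than on 16, 17 and 20. On chromosome 19, 56.8% of canyon base pairs lay under Ras-induced and 25.3% under replicative mesas, and on 22 the shares were 27.5% and 20.4%. Of the whole span, these mesas covered 47.1% and 31.9% on 19, and 21.4% and 19.2% on 22. Without the empty runs they covered 54.3% and 36.8% on 19, and 27.8% and 24.9% on 22. The canyon shares there were thus near or below the cover of the span without the runs. On 16, 17 and 20 the canyon shares were 10.2%, 13% and 11.1% under Ras-induced and 4.36%, 8.40% and 3.43% under replicative mesas. The span there was covered to 37.3%, 25.6% and 38.5% by Ras-induced and 25.5%, 17.7% and 23.8% by replicative mesas. In Mb, canyons under Ras-induced mesas came to 6.34 on 19, 4.27 on 17 and 2.04 on 22. On the other 17 autosomes the canyon shares ran from 8.85 to 25.1% under Ras-induced and from 0.428 to 17.8% under replicative mesas. On chromosome 16 the canyon over the empty run holds no mesa and spans 9.81 of the 18.9 Mb of canyon there.

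The regions behind this cover differed in number and length. Replicative mesas touching the kept windows numbered 80 on the 5 chromosomes, or 0.276 per Mb, with a median length of 769.5 kb, against 445, or 0.190 per Mb, with a median of 662 kb. Ras-induced mesas numbered 97 (0.334 per Mb, median 913 kb) against 574 (0.245 per Mb, median 714.5 kb). H3K27me3 mesas numbered 186 (0.641 per Mb, median 63.8 kb) against 996 (0.425 per Mb, median 46.5 kb). Mesas of each list were thus more frequent and had a longer median. The whole replicative and Ras-induced lists held no mesa under 502 and 501 kb, but H3K27me3 mesas went down to 4.3 kb. Numbers and lengths are therefore not comparable between the 2 marks. Canyons were also more frequent, at 159 (0.548 per Mb) against 1075 (0.458 per Mb), but their median length was 62.6 kb against 169 kb. LADs numbered 219 (0.755 per Mb, median 380 kb) against 1607 (0.685 per Mb, median 460 kb). Chromosomes 16 and 17 had the fewest and the most LADs per Mb of the 5, with 0.564 LADs per Mb of median 925 kb on 16 and 0.926 per Mb of median 330 kb on 17.

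Neighbouring windows resembled each other. For windows next to each other r was 0.587 for LADs, 0.289 for replicative mesas, 0.396 for Ras-induced mesas, 0.518 for H3K27me3 mesas and 0.685 for canyons on the 5 chromosomes, over 285 pairs of windows. At 3 Mb apart these were 0.282, 0.00408, 0.0886, 0.166 and 0.265, and at 5 Mb apart none exceeded 0.0582. On the other autosomes the values for adjacent windows were 0.466, 0.274, 0.355, 0.618 and 0.685. Adjacent windows outside the empty runs gave 0.461, 0.251, 0.347, 0.499 and 0.636 against 0.402, 0.265, 0.343, 0.614 and 0.674. The shortest H3K4me3 mesa touching the 290 windows was 504 kb long, so 1 mesa often fills most of a window or runs across its edge.

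Across the 22 autosomes, mean mesa cover followed gene density for H3K4me3 and less so for H3K27me3. With protein-coding genes per Mb, Pearson r was 0.758 for replicative mesas, 0.756 for Ras-induced mesas, 0.291 for H3K27me3 mesas, -0.271 for canyons and 0.139 for LADs (n = 22 chromosomes, all from the same libraries, given as a description). Spearman rho was 0.754, 0.587, 0.220, -0.282 and -0.0853. Without chromosome 19, r was 0.601 for replicative and 0.535 for Ras-induced mesas, and among the 17 autosomes outside the group 0.574 and 0.461. Chromosome length, which also separates the 5 from most other autosomes, had r of -0.287 with replicative and -0.396 with Ras-induced mesas over 22 autosomes, and 0.239 and 0.0321 among the 17. Gene density and length cannot be fully told apart with these chromosomes.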

How the data were processed

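ChIP-seq of H3, H3K4me3, H3K27me3 and lamin B1 was made in IMR90 cells. The submitters' processing notes name Bowtie 0.12.5 and hg18. Apart from terms in the track line of the LAD list, how regions were called, at which thresholds, and whether libraries were pooled is not given in the sources used here. Of the 5 deposited lists, each gives the start and end of regions in base pairs and no other measurement, so depth is unknown. The track line of the LAD list names lamin B1, size terms, a tag number and merging, per the file headers, without saying how they were applied. LAD starts lay on a grid of 10000 bp, and the shortest LAD touching the 290 kept windows was 100 kb long.

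Regions were merged within a list and the percent cover of each window computed (Python 3.11.15, numpy 2.4.6, scipy 1.17.1), with coordinates printed 1-based. The interval functions were tested on simulated data. The figures used matplotlib 3.10.9. No p-value was computed, since there is no value per library. Members and comparisons were chosen with earlier results of these data known. Windows named are, per list, the 3 with the highest cover (ties by chromosome and start), of which some are given; per chromosome the highest sum of 3 mesa covers; those at the 5 Mb limit; and the longest region of each list inside the windows. The longest runs were added after values were seen. Gene counts are from RefSeq (GRCh38.p14), used without coordinates, so no gene is named for a window and no sequence was read.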

Additional observations from a re-analysis of the deposited data

How the results depend on the processing

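Of 433 recomputed values for 40 results, 424 stayed within the SD over the 5 chromosomes with the same sign or, for shares of windows, within 1.5 times. The LAD difference, 0.436 points, had no stable sign: it was -0.617 with windows near the ends kept, -1.81 without chromosome 16, -1.63 without 19, -0.183 without 20 and -0.215 with chromosome 11 counted among the 5. The share of windows covered by replicative mesas was 26.2%, but 14.9% with windows of 2 Mb and 12.4% when 75% cover was asked; asking 75% gave 22.1% for Ras-induced mesas in place of 35.5%. A higher cover asked of each window leaves fewer windows by construction. The r of LADs with Ras-induced mesas was 0.369 with chromosome 11 among the 5, in place of 0.488; the cause was not tested. Leaving out the empty runs and counting chromosome 11 with the 5 were chosen after the data were seen. No paired analysis was possible because the lists hold no value per library. For the same reason no library could be left out, and a stricter calling threshold could not be tried, since no region carries a score.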

Other observations

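Of the 290 windows on chromosomes 16, 17, 19, 20 and 22, 8 had under 50% LAD cover and at least 50% cover by replicative H3K4me3 mesas. Of the 8, 4 were on chromosome 22, among them a window at 38000001 to 39000000 that held no LAD, was 99.7% under canyons and still had 79.1% under Ras-induced and 50.7% under replicative mesas. On chromosome 16, the window at 64000001 to 65000000 had 12% under LADs, 100% under Ras-induced and 81.5% under replicative mesas, and 1.66% under H3K27me3 mesas. On chromosome 19, 2 windows at 49000001 to 50000000 and at 51000001 to 52000000 had 96.8% and 95.3% under Ras-induced mesas with no replicative mesa, and 76.6% and 78.8% under canyons. These windows were picked after their values were seen.

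Chromosome 11, whose gene density lies among those of the 5, had the highest replicative and Ras-induced mesa cover of the other 17 autosomes, at 20.3% and 26.1% of the mean window, but ranked 19 of 22 for H3K27me3 mesas, at 11.7%. Without the empty runs it kept the highest replicative cover of the 17, at 20.8%. Its Ras-induced cover was then 26.7%, just below the 26.9% of chromosome 15.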
